A study of Mus musculus with 14 samples.

Results

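Desaturases put double bonds into fatty acyl chains and elongases lengthen them, and 10 genes of these enzymes were described across 4 groups of mouse blood progenitors. They were taken by symbol from a table of 54532 genes and comprise the front-end desaturase family genes Fads1, Fads2 and Fads3, the stearoyl-CoA desaturases Scd1 and Scd2, the elongases Elovl1, Elovl5, Elovl6 and Elovl7, and Hacd4 of the dehydratase family that serves elongation. RNA was sequenced in bulk from bone marrow cells of C57BL/6 mice sorted into 2 populations: long-term haematopoietic stem cells (LT-HSC) and granulocyte-monocyte progenitors (GMP). Each cell type had 3 AML1-ETO libraries, of genotype Runx1-Runx1t1, and 4 control libraries, of genotype WT. AML1-ETO is the fusion of the t(8;21) translocation, in which the DNA-binding part of RUNX1 is joined to most of RUNX1T1. Its expression was induced through Mx1-Cre, a recombinase under an interferon-responsive promoter that is active in blood cells and in other tissues. Poly(I:C), the inducer, is listed at 5 mg/kg in 4 intraperitoneal doses for all 14 samples, controls included. The sources used here do not give age, sort markers or whether the controls carry Mx1-Cre.

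Palmitate made by fatty acid synthase or taken up from the diet is lengthened to stearate by ELOVL6 and desaturated to palmitoleate and oleate by the SCD enzymes. Polyunsaturated chains are made from essential dietary fatty acids by FADS2, ELOVL5 and FADS1 acting in turn, and arachidonic acid, the precursor of prostaglandins and leukotrienes in myeloid cells, is one product. Each elongation cycle takes a condensing enzyme of the ELOVL family, 2 reductases and a dehydratase of the HACD family. Many genes of both pathways are textbook targets of the sterol-regulated factors SREBP and of the nuclear receptors LXR and PPAR.

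Libraries held 13210952 to 19403864 counts. Counts were found for 16427 to 18106 genes in AML1-ETO and 12106 to 15329 genes in control LT-HSC libraries. For GMP libraries these were 13473 to 14887 genes in AML1-ETO and 18747 to 19508 in control. The genotypes thus did not overlap in genes found, in opposite directions in the cell types. The part of this in values at or near 0 was not tested. Levels are in CPM, counts scaled to library size with TMM factors. The error of each log2 fold change is its SE, and p-values come from edgeR, adjusted over all genes of a comparison. A gene was called, and is said to have risen or fallen, at an adjusted p under 0.05. No label ties a library to a mouse of its own, and the p-values therefore cover the spread among these libraries only, which may be technical. In bulk RNA, fewer cells that express a gene and less of its RNA per cell cannot be told apart. Runx1t1, part of the fusion, stood at 85.6 to 164 CPM in AML1-ETO against 0 to 18.2 CPM in control LT-HSCs, and at 26.0 to 45.7 CPM in AML1-ETO against 1.69 to 2.74 CPM in control GMPs. The summed level of 13 LT-HSC markers was 900 to 2064 CPM in control LT-HSCs and 44.9 to 61.5 CPM in control GMPs, and that of 12 GMP markers was 194 to 605 CPM and 30112 to 34482 CPM. In the AML1-ETO libraries the LT-HSC markers summed to 1092 to 1524 CPM in LT-HSCs and to 60.8 to 791 CPM in GMPs. The sums in LT-HSCs overlapped the controls, although 3 of the 13 genes fell there and 0 rose. The GMP markers summed to 1518 to 1944 CPM in AML1-ETO LT-HSCs, above every control LT-HSC library (6 of 12 rose and 2 fell), and to 22417 to 36130 CPM in AML1-ETO GMPs. Marker genes of other cell types were also measured. The summed level of 12 B and plasma cell genes was 13176 to 77340 CPM in control LT-HSCs and 114 to 645 CPM in AML1-ETO LT-HSCs. For 12 T and NK cell genes it was 172 to 995 CPM and 26.6 to 59.0 CPM (5 of 8 tested fell, 0 rose). That of 13 mast cell and basophil genes was 508 to 729 CPM in control and 9514 to 12377 CPM in AML1-ETO LT-HSCs, with Fcer1a, Mcpt4, Tpsab1 and Prss34 at 0 in all control LT-HSC libraries. Erythroid genes summed to 1025 to 2811 CPM in control and 423 to 517 CPM in AML1-ETO LT-HSCs (6 of 12 fell). Adipocyte and stromal genes summed to 85.5 to 216 CPM in control and 369 to 502 CPM in AML1-ETO LT-HSCs (2 of 9 tested rose, 0 fell). Adipoq and Plin1 of that list were at 0 in all AML1-ETO LT-HSC libraries. In GMPs that list summed to 140 to 178 CPM in control and 273 to 332 CPM in AML1-ETO. Megakaryocyte genes summed to 315 to 821 CPM in control and 641 to 1424 CPM in AML1-ETO LT-HSCs (5 of 11 tested rose, 2 fell). A list of 20 cell cycle genes summed to 2263 to 4719 CPM in control and 1078 to 1280 CPM in AML1-ETO LT-HSCs. The part of these cell types and of cycling in the results below was not tested.

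The 10 genes differed widely in how far their levels ranged. The means of the 4 groups differed by 1.44-fold from lowest to highest for Scd2, 1.53-fold for Elovl1, 2.30-fold for Elovl5 and 2.74-fold for Elovl6. They differed by 19.97-fold for Fads2, 17.8-fold for Scd1, 13.8-fold for Hacd4, 12.2-fold for Fads3, 9.93-fold for Elovl7 and 4.03-fold for Fads1. Fads1, Fads2, Fads3, Scd1 and Hacd4 had their highest mean in control LT-HSCs, although without control LT-HSC replicate 3 only 4 of them did, since Scd1 was then highest in AML1-ETO GMPs. Elovl6 and Elovl7 were highest in AML1-ETO LT-HSCs, Scd2 and Elovl5 in control GMPs and Elovl1 in AML1-ETO GMPs. Among these leading groups, the libraries of Fads1, Fads2, Fads3, Elovl7 and Hacd4 stood wholly above those of the next group, and those of the other 5 genes overlapped it.

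**Figure D1:**
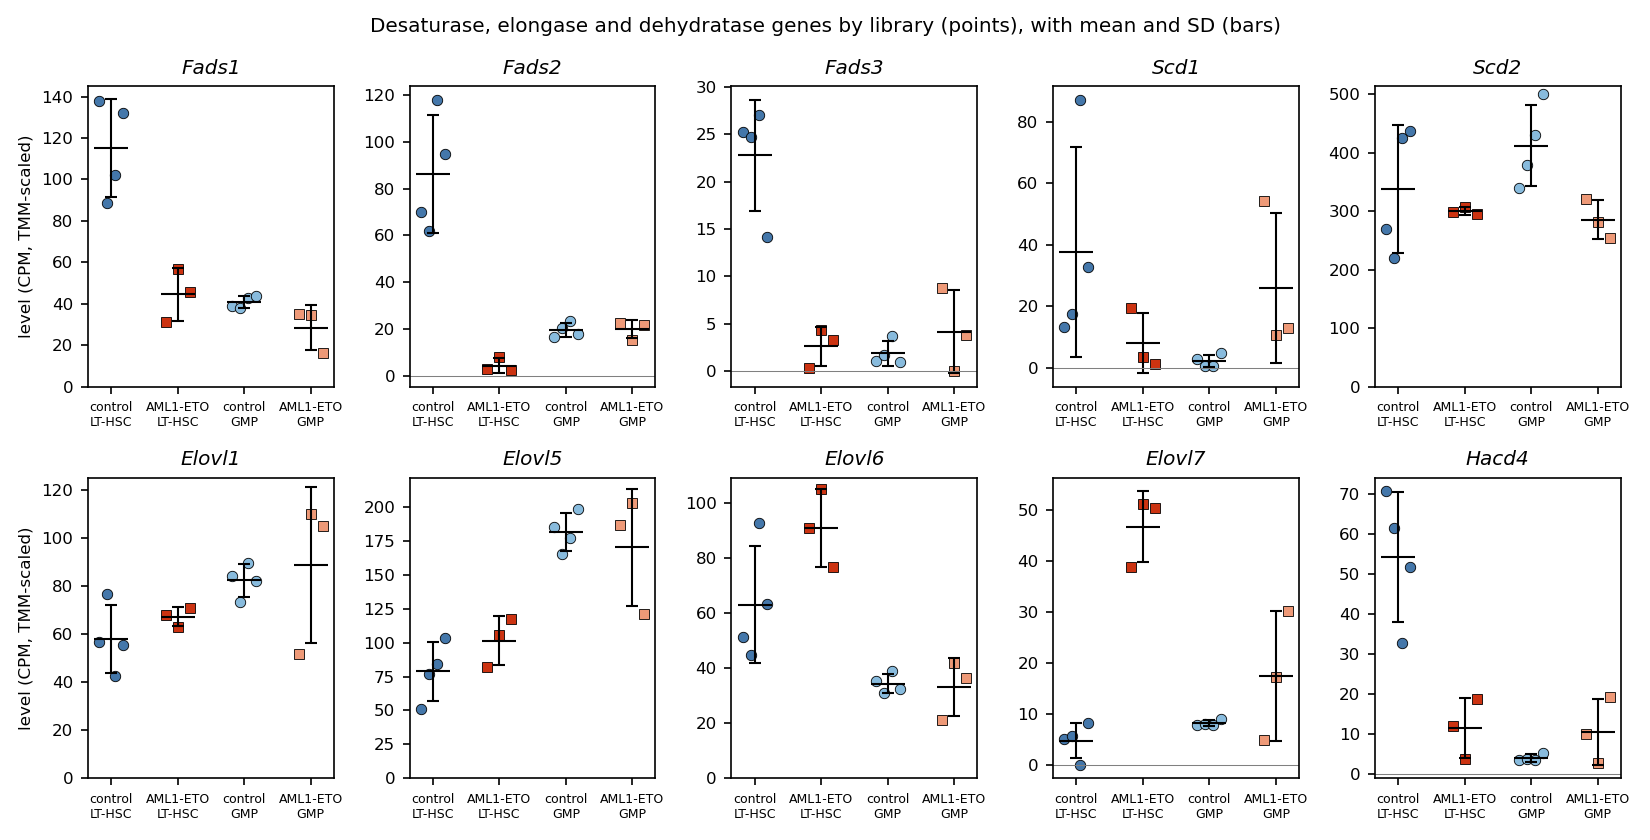
Level of each of the 10 genes in CPM (linear axes, 1 panel per gene) in each library (points) of the 4 groups, with the mean and SD as bars. Fads2 stands at 62.0 to 118 CPM in control LT-HSCs and at 2.20 to 8.06 CPM in AML1-ETO LT-HSCs, while Scd2 lies between 220 and 500 CPM in every library.

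Between genes, levels are compared per kilobase of exon. Scd2, one of the enzymes that make oleate and the stearoyl-CoA desaturase with the higher level in every library, was the most abundant of the 10 in each group, at 61.9 ± 20.04 CPM per kilobase in control LT-HSCs (SD, n = 4), 55.0 ± 1.25 in AML1-ETO LT-HSCs (n = 3), 75.5 ± 12.7 in control GMPs and 52.3 ± 6.11 in AML1-ETO GMPs. In control LT-HSCs Fads2 and Fads1 followed at 26.2 ± 7.70 and 24.0 ± 4.92 CPM per kilobase, beside Elovl5 at 22.4 ± 6.16 and Elovl1 at 21.3 ± 5.18, and these 4 did not differ beyond their SD. In AML1-ETO LT-HSCs Fads2 was at 1.31 ± 0.99 CPM per kilobase, and Elovl5 (28.8 ± 5.10) and Elovl1 (24.7 ± 1.41) came next after Scd2. In control GMPs Elovl5 stood at 51.6 ± 3.96 CPM per kilobase, above Elovl1 at 30.2 ± 2.52. Fads3, Scd1 and Hacd4 were at 0.43 to 0.58 CPM per kilobase in control GMPs.

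**Figure D2:**
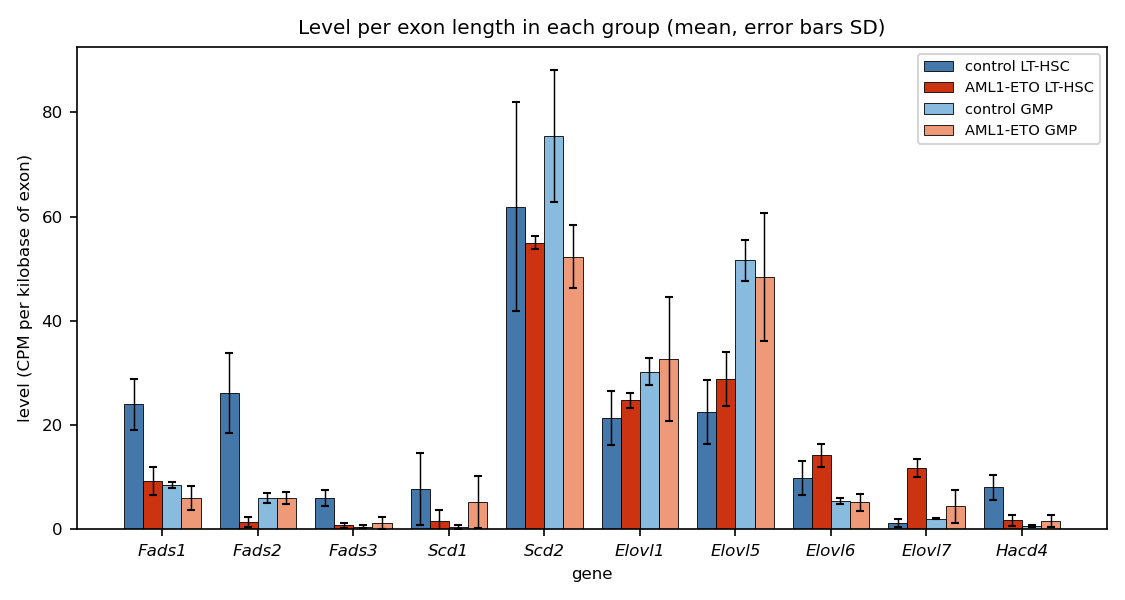
Mean level of each gene in CPM per kilobase of exon (linear axis from 0) in the 4 groups, with the SD over 3 AML1-ETO or 4 control libraries as error bars. Scd2 is the tallest bar in each group, and Fads2 drops from 26.2 in control LT-HSCs to 1.31 in AML1-ETO LT-HSCs.

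AML1-ETO and control LT-HSCs were compared to ask what the fusion changes in stem cells. Fads1, Fads2 and Hacd4 fell and none of the 10 genes rose by edgeR (2 were higher at an unadjusted p under 0.05 and 1 was called higher by DESeq2), where 4.69% of all 14589 genes tested fell and 7.59% rose (12.3% were called). The median log2 fold change of the 10 genes was -0.68, against 0.03 over all genes tested. Fads1 and Fads2 are the desaturases of polyunsaturated synthesis, and Hacd4 is of the elongation cycle. The log2 fold changes of the elongases Elovl1, Elovl5, Elovl6 and Elovl7 were 0.32, 0.46, 0.63 and 3.40, and none was called. Desaturases and elongases were not tested against each other. The libraries of the genotypes did not overlap for 5 of the 10 genes, 4 lower and 1 higher, where 28.5% of all genes did not overlap, 13.0% lower and 15.5% higher.

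Fads2 (chromosome 19, 10062765 to 10101746, minus strand, mm10), the desaturase of the first step of polyunsaturated fatty acid synthesis, stood at 70.2, 62.0, 118 and 94.7 CPM in control LT-HSCs and 2.69, 8.06 and 2.20 CPM in AML1-ETO LT-HSCs. Every AML1-ETO library was below every control library, and the 2 groups were far apart. The log2 fold change was -4.23 ± 0.54 (adjusted p = 0.00326, edgeR), an 18.8-fold lower level, and the call held under all 14 alternatives, with an adjusted p of up to 0.0284.

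Fads1 (chromosome 19, 10182888 to 10196877, plus strand), whose enzyme completes arachidonic acid, stood at 138, 88.6, 102 and 132 CPM in control and 31.1, 56.9 and 45.7 CPM in AML1-ETO LT-HSCs. The groups did not overlap, and the log2 fold change was -1.28 ± 0.27 (adjusted p = 0.0204, edgeR). Leaving out any AML1-ETO LT-HSC library, or control LT-HSC replicate 4, ended this call (adjusted p = 0.0519 to 0.0909). Fads3 (chromosome 19, 10041569 to 10060110, plus strand), a family member reported to act on the sphingoid base of ceramides, stood at 25.3, 24.7, 27.1 and 14.1 CPM in control and 0.30, 4.30 and 3.30 CPM in AML1-ETO LT-HSCs. The groups did not overlap here either, but the log2 fold change of -3.03 ± 0.85 was not called (adjusted p = 0.0511, edgeR). With upper-quartile scaling, a stricter filter, DESeq2 or without control LT-HSC replicate 3 Fads3 was called, with an adjusted p of 0.0475, 0.0496, 0.000667 and 0.0496. The 3 Fads genes lie within 155309 bases of chromosome 19, in the order Fads3, Fads2, Fads1, and all 3 had lower values in every AML1-ETO LT-HSC library than in any control LT-HSC library.

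Hacd4 (chromosome 4, 88396144 to 88438928, minus strand), of the dehydratase family that removes water in the third step of each elongation cycle, stood at 70.7, 61.5, 32.7 and 51.8 CPM in control and 11.9, 3.61 and 18.6 CPM in AML1-ETO LT-HSCs. All AML1-ETO values were lower, with a log2 fold change of -2.16 ± 0.55 (adjusted p = 0.0388, edgeR). The call was lost without any 1 LT-HSC library other than control replicate 3, at an adjusted p of 0.0557 to 0.124. Focad, on the opposite strand, shares 746 exon bases with Hacd4, 11.04% of the exon bases of Hacd4. The strand setting of the counting is unknown here, so reads from those bases cannot be assigned to one of the genes. Focad fell as well, from 39.2 ± 12.7 to 11.3 ± 1.30 CPM (log2 fold change -1.69 ± 0.34, adjusted p = 0.0175, edgeR). In control LT-HSCs and control GMPs Focad stood at 39.2 and 37.4 CPM, and Hacd4 at 54.2 and 3.92 CPM. The part of shared reads in the Hacd4 values was not tested.

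The sequences before the start sites are shown for genes whose genotypes did not overlap in LT-HSCs: Fads2, Fads3 and Hacd4 had lower AML1-ETO values and Elovl7 had higher ones. Elovl5 is added since its window alone held a RUNX motif. They are the 250 bases before the start in the RefSeq promoter table (build GRCm38.p6, the build of mm10), 5′ to 3′ on the strand of the gene, and that table held 7 of the 10 genes, all but Fads1, Scd1 and Scd2. The gene coordinates given here come from GENCODE, whose starts can differ. There Fads2 starts at 10101746, so most of its printed window lies within the gene, and Hacd4 starts at 88438928, inside its window. Capitals mark matches on either strand to the GC box GGGCGG, the CCAAT box, the RUNX motif TGTGGT and the E box CACGTG.
Fads2, chr19:10101504-10101753, minus strand: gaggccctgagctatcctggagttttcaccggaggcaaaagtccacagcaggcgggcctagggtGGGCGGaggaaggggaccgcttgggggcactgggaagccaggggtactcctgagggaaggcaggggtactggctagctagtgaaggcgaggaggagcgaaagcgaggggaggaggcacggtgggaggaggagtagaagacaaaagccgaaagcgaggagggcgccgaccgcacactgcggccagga
Fads3, chr19:10041298-10041547, plus strand: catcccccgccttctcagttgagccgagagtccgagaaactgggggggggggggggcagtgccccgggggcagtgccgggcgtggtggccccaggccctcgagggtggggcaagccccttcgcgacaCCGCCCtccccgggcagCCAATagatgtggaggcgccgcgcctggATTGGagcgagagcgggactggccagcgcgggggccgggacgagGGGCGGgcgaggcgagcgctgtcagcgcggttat
Hacd4, chr4:88438916-88439165, minus strand: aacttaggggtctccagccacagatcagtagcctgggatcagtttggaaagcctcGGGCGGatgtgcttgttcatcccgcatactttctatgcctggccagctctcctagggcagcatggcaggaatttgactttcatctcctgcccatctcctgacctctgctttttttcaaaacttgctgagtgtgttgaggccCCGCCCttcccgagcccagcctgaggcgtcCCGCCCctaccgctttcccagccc
Elovl7, chr13:108214154-108214403, plus strand: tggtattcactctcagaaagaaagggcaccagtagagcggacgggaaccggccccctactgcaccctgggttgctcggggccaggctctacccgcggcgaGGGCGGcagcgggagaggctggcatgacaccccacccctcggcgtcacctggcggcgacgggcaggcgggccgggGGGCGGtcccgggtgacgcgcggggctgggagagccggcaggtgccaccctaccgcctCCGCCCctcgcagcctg
Elovl5, chr9:77917115-77917364, plus strand: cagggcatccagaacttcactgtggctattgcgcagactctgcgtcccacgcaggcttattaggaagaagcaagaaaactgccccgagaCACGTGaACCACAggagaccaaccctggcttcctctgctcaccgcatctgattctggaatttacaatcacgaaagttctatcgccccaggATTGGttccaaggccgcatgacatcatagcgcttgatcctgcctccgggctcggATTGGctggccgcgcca
Over the whole 300-base windows of the table, which run 50 bases past the start, GC content was 67.0% for Fads2, 73.0% for Fads3, 58.67% for Hacd4, 74.0% for Elovl7 and 57.67% for Elovl5, against a median of 52.67% over 32851 mouse promoters. GC boxes were found in Fads2, Fads3, Hacd4, Elovl7 and Elovl1, and in 35.658% of all promoters. CCAAT boxes were found in Fads3, Elovl5 and Elovl1, and in 37.408% of all promoters. The RUNX motif (154 bases before the start) and the E box beside it (161 bases before), which it does not overlap, in Elovl5 were the only matches of their kind among the members, against 16.761% and 7.15% of all promoters. No member window matched the sterol regulatory element TCACNCCAC (1.242% of promoters) or TATAAA (13.616%). A match is a run of letters, not a measured binding site, and the lack of one says only that these letters are not in the window.

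Elovl7 (chromosome 13, 108214404 to 108285683), an elongase of long saturated and unsaturated chains, had the opposite pattern in these cells. Its level was 5.02, 5.66, 0 and 8.16 CPM in control LT-HSCs and 38.8, 51.2 and 50.4 CPM in AML1-ETO LT-HSCs. Every AML1-ETO value was above every control value, with a log2 fold change of 3.40 ± 1.05 that was not called (adjusted p = 0.0716, edgeR). The library at 0 was control LT-HSC replicate 3, which had counts for the fewest genes of all libraries (12106), and without it Elovl7 was called (2.99 ± 0.30, adjusted p = 0.0016). DESeq2 and the fit of all 14 samples called it too, with an adjusted p of 0.0109 and 0.0207.

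Elovl6 (chromosome 3, 129532355 to 129638495), which lengthens palmitate to stearate, stood at 51.5, 45.0, 92.9 and 63.4 CPM in control and 91.0, 105 and 76.8 CPM in AML1-ETO LT-HSCs. The groups overlapped. Its log2 fold change of 0.63 ± 0.27 was not called (adjusted p = 0.186, edgeR), except without control LT-HSC replicate 3 (0.86, adjusted p = 0.0356). Elovl5, which lengthens polyunsaturated chains, stood at 51.3 to 104 CPM in control and 81.9 to 117 CPM in AML1-ETO LT-HSCs. Elovl1, the elongase of very long saturated chains, stood at 42.7 to 76.9 CPM and 63.3 to 70.9 CPM. Both overlapped between the genotypes and were not called.

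The 2 stearoyl-CoA desaturases lie with Scd3 and Scd4 in a cluster of 204611 bases on chromosome 19, and they differed in level and in spread. Scd2 (44293674 to 44306864) stood at 270, 220, 426 and 437 CPM in control and at 298.7, 308.0 and 294.6 CPM with the fusion. These 3 values lay within the control range (log2 fold change -0.07 ± 0.26, adjusted p = 0.925, edgeR). Scd1 (44394455 to 44407879) stood at 13.1, 17.4, 87.1 and 32.8 CPM in control and 19.3, 3.53 and 1.22 CPM in AML1-ETO LT-HSCs. The groups overlapped through AML1-ETO replicate 1, and the log2 fold change of -2.10 ± 1.01 was not called (adjusted p = 0.242, edgeR).

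**Figure D3:**
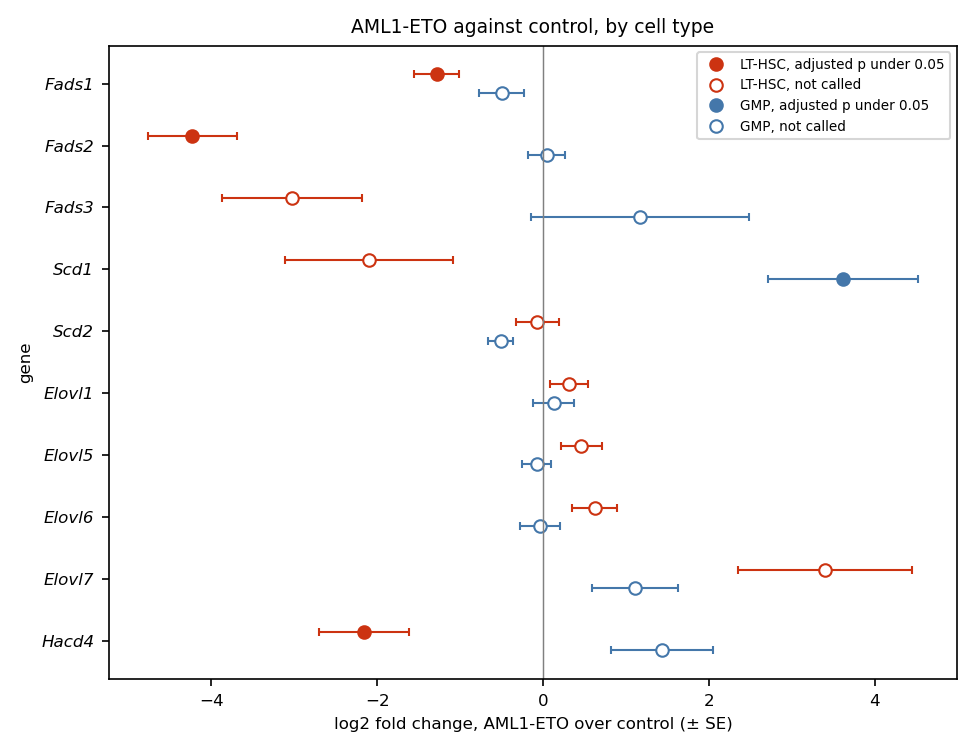
Log2 fold change of each gene between AML1-ETO and control (± SE), in LT-HSCs (red) and GMPs (blue); filled points have an adjusted p under 0.05 (edgeR). Fads2 is at -4.23 in LT-HSCs and at 0.05 in GMPs, and Scd1 lies on opposite sides of 0 in the 2 cell types.

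In GMPs the fusion was compared with control in the same way. Scd1 rose and none of the 10 genes fell by edgeR (1 at an unadjusted p under 0.05, and Scd2 by DESeq2), where 5.47% of 13981 genes tested rose and 3.96% fell (9.43% were called). The median log2 fold change of the 10 genes was 0.09, against -0.03 over all genes. The groups did not overlap for Scd1, which was higher, and for Fads1 and Scd2, which were lower, where 10.6% of all genes were higher and 16.1% lower without overlap (26.7% in all).

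Scd1 reached 54.1, 10.5 and 13.0 CPM in AML1-ETO GMPs and stood at 2.73, 0.59, 0.52 and 4.60 CPM in control GMPs. All AML1-ETO values were above all control values, replicate 1 by far, and the log2 fold change was 3.62 ± 0.91 (adjusted p = 0.0443, edgeR). The call was lost without AML1-ETO GMP replicate 1 (2.48, adjusted p = 0.0867) and without any 1 of the 4 control GMP libraries (adjusted p = 0.0869 to 0.131). Erythroid genes moved with it in part: their summed level was 4812, 72.5 and 1708 CPM in AML1-ETO GMP replicates 1, 2 and 3 and 21.8 to 42.5 CPM in control GMPs, with only Hba-a2 of 12 genes at 0 in all control GMPs, and that of neutrophil granule genes was highest in AML1-ETO replicate 1 (3949 CPM, against 132 to 168 CPM in controls).

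The level of Scd2 was 321.0, 282.0 and 254.6 CPM in AML1-ETO GMPs and 340, 380, 430 and 500 CPM in control GMPs. Each AML1-ETO value was lower than each control value, but the log2 fold change of -0.51 ± 0.15 was not called (adjusted p = 0.0734, edgeR; 0.026 with DESeq2 and 0.0453 without AML1-ETO GMP replicate 1). Fads1 stood at 35.0, 34.6 and 16.1 CPM against 38.8, 38.1, 42.9 and 43.7 CPM (log2 fold change -0.50 ± 0.27, adjusted p = 0.308). Fads2 stood at 22.5, 15.4 and 21.8 CPM against 16.3, 20.5, 23.3 and 17.9 CPM. The Fads2 ranges overlapped almost wholly, and the log2 fold change was 0.05 ± 0.23 (adjusted p = 0.929).

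The remaining members had wide ranges among the 3 AML1-ETO GMP libraries, and so had some marker lists. LT-HSC markers summed to 87.3, 60.8 and 791 CPM in AML1-ETO replicates 1, 2 and 3 against 44.9 to 61.5 CPM in control GMPs, and megakaryocyte genes to 480, 237 and 2840 CPM against 127 to 158 CPM. Mast cell and basophil genes summed to 2839 to 3841 CPM against 897 to 1075 CPM. AML1-ETO GMP replicate 3, the highest in all 3 lists, also had the highest Hacd4 and Elovl7 values, and the part of these cell types was not tested. Elovl7 stood at 4.80, 17.2 and 30.3 CPM against 7.73 to 9.02 CPM in control GMPs (log2 fold change 1.11 ± 0.52, adjusted p = 0.239, edgeR). It was below the controls in replicate 1 and above them in the other two, and without replicate 1 it was called (1.55, adjusted p = 0.0132). Hacd4 stood at 9.80, 2.62 and 19.1 CPM against 3.32 to 5.24 CPM (1.44 ± 0.61, adjusted p = 0.199), and was called without replicate 2 (1.89, adjusted p = 0.0156). Fads3 stood at 8.75, 0 and 3.80 CPM against 0.99 to 3.77 CPM (1.17 ± 1.32, adjusted p = 0.657). Elovl1, Elovl5 and Elovl6 overlapped between genotypes, with log2 fold changes of 0.13, -0.08 and -0.04.

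Whether the effect of the fusion differed between the cell types was tested as an interaction over all 14 samples. It was more positive in GMPs than in LT-HSCs for Fads2, Scd1 and Hacd4 and more negative for none of the 10 genes by edgeR (0 at an unadjusted p under 0.05 and 0 by DESeq2), where 3.43% of 16116 genes were more positive and 2.91% more negative (6.34% were called). The median difference of the 10 genes was 0.37 on the log2 scale, against 0.01 over all genes. For Fads2 the difference was 4.36 ± 0.57 (adjusted p = 0.00102, edgeR) and was called under all 20 alternatives. For Scd1 it was 5.84 ± 1.49 (adjusted p = 0.0315, edgeR), lost without AML1-ETO LT-HSC replicate 2 or 3, AML1-ETO GMP replicate 1 or control GMP replicate 1, 2 or 3, with an adjusted p of 0.0589 to 0.111. For Hacd4 it was 3.67 ± 0.85 (adjusted p = 0.0202, edgeR), lost without AML1-ETO LT-HSC replicate 1 or 2 or AML1-ETO GMP replicate 3, with an adjusted p of 0.0542 to 0.0554. Focad, which shares exon bases with Hacd4, was called in the same direction (1.45 ± 0.37, adjusted p = 0.0303, edgeR). The differences for Fads3 (4.27 ± 1.66, adjusted p = 0.153), Elovl7 (-2.22 ± 1.25, adjusted p = 0.355) and Fads1 (0.85 ± 0.39, adjusted p = 0.227) were not called.

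Control GMPs were compared with control LT-HSCs to describe the enzymes in the 2 cell types without the fusion. These mice are also listed with poly(I:C). Fads1, Fads2, Fads3, Scd1, Elovl6 and Hacd4 fell and Elovl5 rose, where 10.6% of 16116 genes fell and 13.9% rose (24.5% were called). The libraries of the 2 cell types did not overlap for these 7 genes, where 11.4% of all genes were lower in GMPs and 20.8% higher without overlap (32.2% in all). The median log2 fold change of the 10 genes was -1.19, against 0.02 over all genes. The LT-HSC control libraries also carried the lymphoid and erythroid genes: 10 of 12 B and plasma cell genes and 11 of 12 erythroid genes fell from control LT-HSCs to control GMPs, and their part in the values was not tested.

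Hacd4 fell by 3.79 ± 0.60 on the log2 scale (adjusted p = 0.000496, edgeR), from 32.7 to 70.7 CPM in LT-HSCs to 3.32 to 5.24 CPM in GMPs. Scd1 fell by 4.15 ± 1.03 (adjusted p = 0.00981), to under 5 CPM in all 4 control GMPs. Fads2 fell by 2.14 ± 0.37 (adjusted p = 0.000849) and Fads1 fell by 1.496 ± 0.26 (adjusted p = 0.000915), and GMP values of Fads1 stayed between 38.1 and 43.7 CPM. These 4 calls held under all 20 alternatives. Fads3 fell by 3.602 ± 1.15 (adjusted p = 0.0343), a call lost without control LT-HSC replicate 1 or 2 or control GMP replicate 1, 2 or 4, and Elovl6 by 0.88 ± 0.25 (adjusted p = 0.0203), a call lost without control GMP replicate 2 or 4.

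Elovl5 was the gene of the 10 that rose in control GMPs. It stood at 51.3, 76.6, 84.1 and 104 CPM in control LT-HSCs and 186, 165, 177 and 198 CPM in control GMPs. The GMP values all lay above the LT-HSC values, with a log2 fold change of 1.20 ± 0.21 (adjusted p = 0.00112, edgeR) that held under all 20 alternatives. Scd2, Elovl1 and Elovl7 had log2 fold changes of 0.29, 0.51 and 0.79 and were not called.

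In AML1-ETO mice GMPs were compared with LT-HSCs in the same fit. Fads2 and Elovl5 rose and Elovl6 fell, where 12.6% of 16116 genes rose and 9.15% fell (21.7% were called). The 10 genes had a median log2 fold change of 0.16, against 0 over all genes. Elovl7 was also lower without overlap but was not called (-1.43 ± 0.95, adjusted p = 0.325, edgeR), so that 2 of the 10 genes were higher and 2 lower without overlap, where 21.1% and 20.7% of all genes were (41.8% in all). Fads2 went from 2.20 to 8.06 CPM in AML1-ETO LT-HSCs to 15.4 to 22.5 CPM in AML1-ETO GMPs, a log2 fold change of 2.21 ± 0.43 (adjusted p = 0.00229, edgeR), whereas in control mice it fell by 2.14. The 2 comparisons share no sample, and the interaction given above is the test of that difference. Both calls of Fads2 held under all 20 alternatives.

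Elovl6 fell by 1.45 ± 0.29 (adjusted p = 0.00272, edgeR), from 76.8 to 105 CPM to 21.4 to 41.8 CPM, and held under all 20 alternatives. Elovl5 rose by 0.75 ± 0.24 (adjusted p = 0.0417, edgeR), from 81.9 to 117 CPM to 121 to 203 CPM. That call was lost under 14 of 20 alternatives, with an adjusted p of up to 0.161, among them both other scalings and the omission of any 1 AML1-ETO LT-HSC library, AML1-ETO GMP replicate 1 or 2 or any 1 control GMP library. Fads1 and Hacd4, which fell from LT-HSC to GMP in control mice, had log2 fold changes of -0.64 (adjusted p = 0.137) and -0.12 in AML1-ETO mice.

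**Figure D4:**
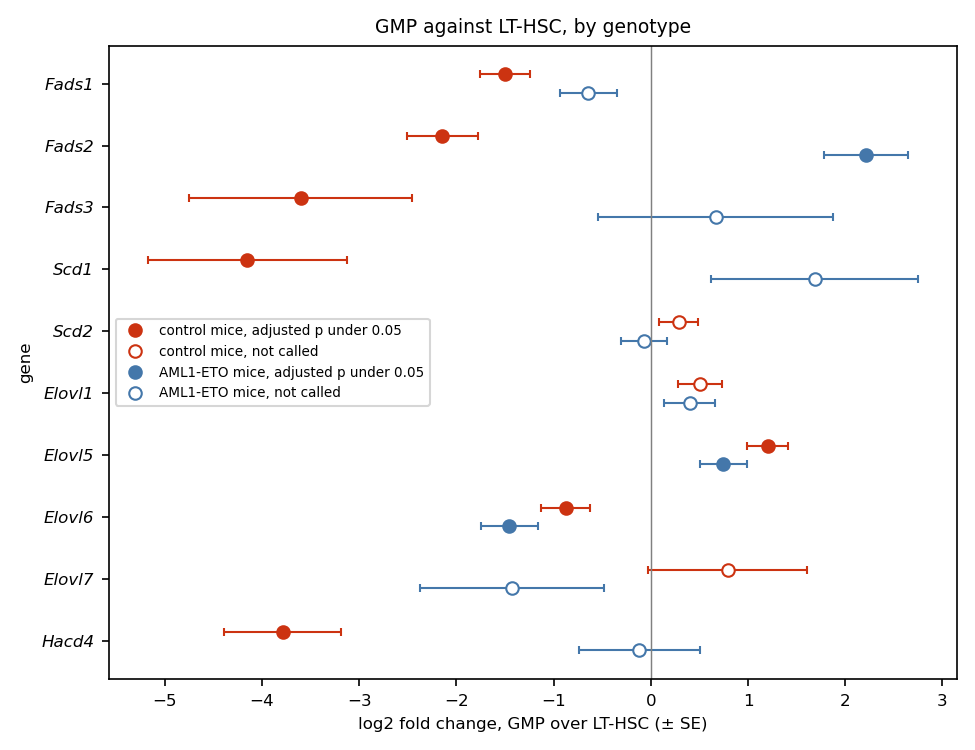
Log2 fold change of each gene between GMP and LT-HSC (± SE), in control mice (red) and AML1-ETO mice (blue); filled points have an adjusted p under 0.05 (edgeR). In control mice 6 genes are filled to the left of 0, and Fads2 is at -2.14 in control and at 2.21 in AML1-ETO mice.

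Within the counts of the 2 stearoyl-CoA desaturases, the share of Scd1 was taken in each library with an exact Clopper-Pearson interval (95%, counting error only, since reads carry no molecular identifiers). Scd1 made up 4.64%, 7.33%, 17.0% and 6.98% in control LT-HSCs and 6.07%, 1.13% and 0.41% in AML1-ETO LT-HSCs. In GMPs it made up 14.4%, 3.602% and 4.85% in AML1-ETO and 0.80%, 0.16%, 0.12% and 0.91% in control. The AML1-ETO GMP shares were all above the control GMP shares, with intervals of 13.5% to 15.4% for the highest and 3.07% to 4.19% for the lowest AML1-ETO library and 0.72% to 1.13% for the highest control library. The LT-HSC groups overlapped through AML1-ETO replicate 1. Scd3 and Scd4, the near relatives in the same cluster, held at most 60 and 39 counts in any library.

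**Figure D5:**
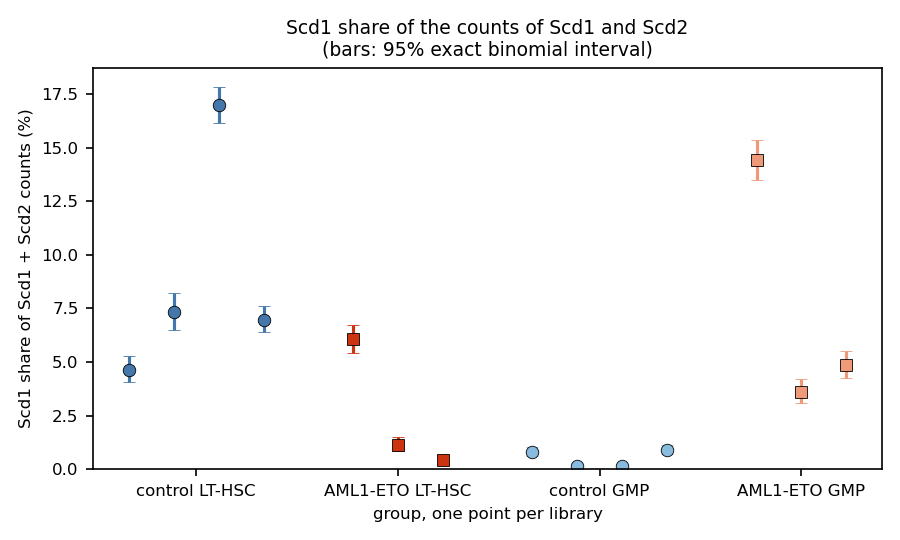
Share of Scd1 in the summed counts of Scd1 and Scd2 (%, linear axis from 0), 1 point per library in each of the 4 groups, with exact 95% binomial intervals as bars. Control GMPs lie at 0.12 to 0.91% and AML1-ETO GMPs at 3.602 to 14.4%.

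Other genes of the pathway were taken from lists by role, and their counts stand beside the shares of all genes given above (12.3% called in LT-HSCs, 9.43% in GMPs, 6.34% for the difference, and 24.5% and 21.7% between the cell types in control and AML1-ETO mice). Of 5 tested genes among the other elongases and the elongation cycle, none was called by edgeR in the fusion comparison of either cell type (in each, 1 was lower at an unadjusted p under 0.05, and DESeq2 called 1, Hsd17b12, lower in LT-HSCs and 0 in GMPs). In LT-HSCs Hsd17b12 stood at 33.2, 24.2 and 37.0 CPM with the fusion and 50.8 to 84.6 CPM in control. Tecr stood at 145, 125 and 132 CPM there, against 151 to 212 CPM. Both were lower without overlap, whereas Hacd1, Hacd2 and Hacd3 overlapped. The median log2 fold change of the 5 genes was -0.33 in LT-HSCs. Hacd2, a second dehydratase, rose from LT-HSC to GMP in control mice (14.4 ± 5.17 to 28.1 ± 1.27 CPM, adjusted p = 0.0486, edgeR) and in AML1-ETO mice (6.67 ± 2.64 to 26.9 ± 1.34 CPM, adjusted p = 0.00246). In AML1-ETO mice Hsd17b12, the ketoreductase of the cycle, and Tecr, its last reductase, rose as well, by 1.01 and 0.62 on the log2 scale (3 of 5 genes). The call of Hacd2 in control mice was lost under 15 of 20 alternatives, among them both other scalings and the omission of any 1 library but AML1-ETO LT-HSC replicate 1 or 3 or control LT-HSC replicate 3. That of Hsd17b12 was lost without AML1-ETO LT-HSC replicate 2 or AML1-ETO GMP replicate 1.

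Among 11 other desaturases and electron donors, none of the 7 tested in LT-HSCs was called by edgeR (3 at an unadjusted p under 0.05, and Fads6 by DESeq2). Degs2, a sphingolipid desaturase and hydroxylase, was the 1 of 8 called in GMPs. It held 0 counts in AML1-ETO GMPs and stood at 1.27 ± 0.58 CPM in control GMPs, at least 19.8-fold lower against a floor of 3 counts over the group. Fads6, a family relative of unclear function named here after its values were seen, had 20.8, 31.7 and 18.04 CPM in LT-HSCs with the fusion and 1.81, 2.52, 4.00 and 0 CPM without it. All AML1-ETO values were higher, but the log2 fold change of 3.598 ± 1.14 was not called (adjusted p = 0.0779, edgeR). Between control LT-HSCs and control GMPs Cyb5b and Cyb5r4, a cytochrome b5 and a cytochrome b5 reductase, rose by 1.15 and 0.91 on the log2 scale, and Degs2 rose too, by at least 26.2-fold, since no control LT-HSC library had a count of it. Degs2 was also the 1 of 9 genes called for the difference between the cell types by edgeR, and no size is given because 2 groups held 0 counts. DESeq2 did not call Degs2 there and called Fads6, more negative in GMPs. In AML1-ETO mice Cyb5b and the ceramide desaturase Degs1 rose from LT-HSC to GMP by 0.67 and 1.88. Leaving out any 1 control GMP library ended the Degs2 calls in GMPs and in control mice, and that for the difference was lost without any 1 library but control LT-HSC replicate 1 or 3. Cyb5r4 was lost with the size factors of DESeq2 and without control GMP replicate 1, and Cyb5b in AML1-ETO mice without AML1-ETO LT-HSC replicate 2.

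Of 13 tested regulators, Rxra, the partner of LXR and PPAR, and Ppard rose in AML1-ETO LT-HSCs, by 1.36 ± 0.30 (adjusted p = 0.0227, edgeR) and 1.502 ± 0.26 (adjusted p = 0.0101), and none fell (4 were lower at an unadjusted p under 0.05, and DESeq2 called Srebf1, Srebf2 and Insig1 lower). In GMPs Rxra rose by 2.57 ± 0.59 (adjusted p = 0.033), the 1 of 14 called by edgeR (DESeq2 called 5 higher: Rxra, Ppard, Pparg, Nr1h2 and Nr1h3), although AML1-ETO replicate 1 (6.71 CPM) was close to the control range of 4.48 to 6.32 CPM. Pparg stood at 27.8, 0.65 and 4.59 CPM in AML1-ETO and 0.21 to 0.86 CPM in control GMPs. Nr1h3 stood at 31.4, 2.09 and 3.74 CPM against 1.94 to 2.27 CPM. Both overlapped the controls and were highest in AML1-ETO GMP replicate 1, whereas Ppard and Nr1h2 did not overlap. The 3 regulators that DESeq2 alone called lower in LT-HSCs had no call by edgeR. Insig2, Mbtps1 and Mbtps2 of the same list had log2 fold changes of 0.58, 0.10 and 0.50 there and overlapped between the genotypes. Scap of that list stood at 73.7, 87.8 and 86.3 CPM in AML1-ETO and 108, 128, 193 and 103 CPM in control LT-HSCs. These values did not overlap, and Scap was called by neither edgeR nor DESeq2. Srebf1, which drives fatty acid genes, stood at 112, 104 and 111 CPM against 166, 184, 174 and 145 CPM in control LT-HSCs (log2 fold change -0.51 ± 0.16, adjusted p = 0.0674), and Srebf2, its cholesterol counterpart, at 200 to 226 CPM against 288 to 443 CPM (-0.65 ± 0.21, adjusted p = 0.0833). Insig1, which retains the SREBPs in the endoplasmic reticulum, was at -1.27 ± 0.43 (adjusted p = 0.0982). Neither Srebf1, Srebf2 nor Insig1 overlapped between the genotypes. The effect on Srebf1 was more positive in GMPs than in LT-HSCs by 0.75 ± 0.20 (adjusted p = 0.0359, edgeR), the 1 of 15 regulators called for that difference (DESeq2 called Insig1 too). Calls were lost for Rxra in LT-HSCs without any 1 AML1-ETO LT-HSC library, for Ppard without AML1-ETO LT-HSC replicate 1 or 2, and for Rxra in GMPs without AML1-ETO GMP replicate 2 or 3 or any 1 control GMP library. The difference for Srebf1 was lost under 11 of 20 alternatives, among them the omission of any 1 AML1-ETO LT-HSC or control GMP library or AML1-ETO GMP replicate 1 or 3.

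From LT-HSC to GMP in control mice 4 regulators fell and 3 rose of 15, where 10.6% of all genes fell and 13.9% rose. Srebf2 fell by 0.96, Rxra by 2.69 and the LXR gene Nr1h2 by 0.73, and Srebf1, named to complete the count after its value was seen, by 0.41 (adjusted p = 0.0329, edgeR). Mlx and Rxrb rose by 1.18 and 0.49. Pparg rose from 0 counts in control LT-HSCs to only 0.67 ± 0.30 CPM in control GMPs. That is at least 13.7-fold against the floor of 3 counts over the group, which covers counting error only. In AML1-ETO mice Srebf2 and Ppard fell by 0.53 and 1.04 and Insig1 and Mlx rose by 1.66 and 1.41. Srebf2, Rxra and Mlx held under all 20 alternatives in control mice, whereas Rxrb was lost with both other scalings and Nr1h2 without AML1-ETO LT-HSC replicate 2, control LT-HSC replicate 1, 2 or 4 or any 1 control GMP library. In AML1-ETO mice Srebf2 was lost without any 1 AML1-ETO library or control GMP replicate 2, 3 or 4, Ppard without AML1-ETO LT-HSC replicate 2 or AML1-ETO GMP replicate 1, Insig1 without AML1-ETO LT-HSC replicate 3 and Mlx without AML1-ETO LT-HSC replicate 1.

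Of 10 tested genes that supply saturated chains, none was called in AML1-ETO LT-HSCs by edgeR (4 at an unadjusted p under 0.05, and Acss2 and Acacb lower by DESeq2). Acss2, which makes acetyl-CoA from acetate, stood at 21.8, 13.8 and 29.8 CPM against 40.1, 45.6, 79.3 and 59.6 CPM in control LT-HSCs (adjusted p = 0.0507). In GMPs Acaca, the acetyl-CoA carboxylase of fatty acid synthesis, fell from 71.0 ± 5.23 to 35.1 ± 9.81 CPM (log2 fold change -1.001 ± 0.19, adjusted p = 0.0228, edgeR), the 1 of 10 called (DESeq2 also called Fasn lower and Acss2 higher). Fasn, the fatty acid synthase, stood at 282, 315 and 152 CPM against 377 to 465 CPM there and was not called (-0.70 ± 0.23, adjusted p = 0.104). The effect on Acss2 was more positive in GMPs by 2.72 ± 0.55 (adjusted p = 0.0108, edgeR), and in control mice Acss2 fell from LT-HSC to GMP by 2.72 and Mid1ip1, an activator of acetyl-CoA carboxylase, rose by 1.28. In AML1-ETO mice Acly, which makes cytosolic acetyl-CoA from citrate, rose by 0.78. The 2 calls of Acss2 and that of Mid1ip1 held under all 20 alternatives, that of Acaca was lost without any 1 control GMP library and that of Acly without AML1-ETO LT-HSC replicate 1.

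Of 17 tested genes that activate or use acyl chains, 3 rose and 1 fell in AML1-ETO LT-HSCs by edgeR, where 7.59% of all genes rose and 4.69% fell. At an unadjusted p under 0.05, 3 were higher and 4 lower, and DESeq2 called 3 higher and 5 lower (Acsl1, Acsl3, Mboat1, Mboat2 and Pla2g4a). Lpcat2, which makes platelet-activating factor and remodels phosphatidylcholine, stood at 157, 151 and 118 CPM in the AML1-ETO libraries and at 0, 6.89, 7.93 and 2.18 CPM in the controls. Its log2 fold change was 5.18 ± 1.01 (adjusted p = 0.0151, edgeR). Cers6, a ceramide synthase, rose by 2.48 ± 0.43 (adjusted p = 0.0101), and Mboat7, which puts arachidonate into phosphatidylinositol, by 1.31 ± 0.19 (adjusted p = 0.00501). Acsl3, an acyl-CoA synthetase, fell from 30.3 ± 9.01 to 5.18 ± 2.27 CPM (-2.45 ± 0.48, adjusted p = 0.015). In GMPs Cers4 rose by 1.33 ± 0.28 (adjusted p = 0.0282, edgeR), the 1 of 17 called (4 were higher at an unadjusted p under 0.05, and DESeq2 called Cers4, Lpcat2, Lpcat4 and Mboat7 higher). For the difference between the cell types Lpcat2 (-3.97) and Cers6 (-2.18) were called by edgeR and none was more positive, whereas DESeq2 called 4 more positive and 2 more negative (5 and 3 at an unadjusted p under 0.05). From LT-HSC to GMP Lpcat2, Lpcat4, Mboat7 and Cers6 rose and Cers4 fell in control mice (5 of 18, against 4 higher and 4 lower by DESeq2), and Acsl1, Lpcat4, Mboat1 and Cers6 rose in AML1-ETO mice (4 of 18). In LT-HSCs Mboat7 held under all 14 alternatives, Lpcat2 was lost without any 1 AML1-ETO library and Cers6 and Acsl3 without AML1-ETO replicate 1 or 2, whereas Cers4 in GMPs was lost without any 1 control GMP library. The difference for Lpcat2 was lost without any 1 library but control LT-HSC replicate 1, 2 or 3, and that for Cers6 without AML1-ETO LT-HSC replicate 1 or 2 or control GMP replicate 1, 2 or 4. Between the cell types Lpcat2 was lost in control mice without control LT-HSC replicate 4 or any 1 control GMP library, and Lpcat4 was lost in each genotype with both other scalings and without 4 or more single libraries (control LT-HSC replicate 2 or 4 or control GMP replicate 1, 3 or 4, and AML1-ETO LT-HSC replicate 1 or 2 or AML1-ETO GMP replicate 2 or 3).

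For 5 of the 6 members called in at least 2 of the 5 comparisons, the genes with the most similar profile were found among the 16116 tested genes by the root mean square difference of centred log2 CPM over the 14 libraries, which share groups and depth. Hacd4 was nearest to Prkch (0.34) and Mllt3 (0.51), against an SD of 1.63 for Hacd4 itself. Fads2 was nearest to Zfp385a (0.69) and Chpf (0.74), against an SD of 1.63. Elovl5 was nearest to Erp44 and Rrbp1 (0.22 each, SD 0.60), Elovl6 to Pnpla6 (0.24) and Ripor1 (0.26, SD 0.67), and Fads1 to Katnal1 (0.37) and Ptch1 (0.40, SD 0.84).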

How the data were processed

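Bulk RNA from 14 sorted mouse bone marrow samples was analysed from a table of raw counts per gene that the authors deposited, whole numbers that are not normalised. Per the submitters' processing notes, which state no roles, the tools were HISAT2 2.0.5 and featureCounts 1.5.0-p3, on mm10. The kits SMART-Seq v4 for low input and SMARTer, stranded, are both named per the labels' protocols, without saying which served which library. The sources used here give neither annotation release nor strand setting, so overlapping genes cannot be told apart by their reads, and Scd1 to Scd4 may share or lose reads. The table held 14 columns matched by name to the sample titles and 54532 gene lines, of which 105 repeat an earlier symbol. No 2 replicates were alike within counting noise (chi-square per gene of 9.20 to 216). Control GMP libraries were more alike (9.20 to 15.9) than those of the other groups (35.0 to 216). In the fit of all 14 samples the 4 groups share 1 spread estimate.

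Genes were filtered with filterByExpr, scaled by TMM and tested with the quasi-likelihood F test of edgeR 4.0.16 in R 4.3.3 (limma 3.58.1 installed), two-sided, p-values being adjusted by Benjamini-Hochberg over every tested gene. Genotypes were compared within a cell type on its 7 samples, and the interaction and the cell types in 1 fit of all 14. DESeq2 1.42.0, other scalings, filters, a replicate block and the omission of each library were alternatives. The code was run on simulated counts with the same fixed spread for every gene, which differs from these data. That run checked the code only and says nothing on the calls given here. Coordinates and exon lengths come from GENCODE M21 (mm10), promoters from RefSeq (GRCm38.p6). All 10 members passed the filter in every comparison. A gene with 0 counts in a group was set against a floor of 3 counts over the group, which covers counting error only. Named genes were Runx1t1, the 10 members, and from each pathway list all called genes if 5 or fewer were called, otherwise the 3 largest rises and falls with a mean of at least 20 counts. Similar genes were the 2 with the smallest root mean square difference of centred log2 CPM (prior count 2). Those of Scd1 are not reported here. Members, lists and rules were chosen with earlier results of these data known.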

Additional observations from a re-analysis of the deposited data

Results flagged for a closer look

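Hacd4 stood at 5.24 CPM in control GMP replicate 4 against 3.32, 3.61 and 3.51 CPM in the other three control GMP libraries, a gap of 0.85 of the whole range of the group, above Dixon's 95% critical value for 4 samples. Chance flags about 1 in 20 groups, and 20 control groups of the 10 genes were looked at.

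The effect of the fusion differed between the cell types, by an interaction test in edgeR, for 3 of the 10 desaturase and elongase genes. For Fads2 the difference was 4.36 on the log2 scale (adjusted p = 0.00102), with lower values in 3 of 3 AML1-ETO LT-HSC libraries and overlapping values in GMPs. For Scd1 it was 5.84 (adjusted p = 0.0315), with higher values in 3 of 3 AML1-ETO GMP libraries and overlap in LT-HSCs. For Hacd4 it was 3.67 (adjusted p = 0.0202), with lower values in 3 of 3 AML1-ETO LT-HSC libraries and overlap in GMPs. Focad, which shares exon bases with Hacd4, was called in the same direction (1.45, adjusted p = 0.0303, edgeR). The call of Fads2 held under all 20 alternatives, whereas that of Scd1 was lost under 6 and that of Hacd4 under 3.

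Among the named genes of the pathway lists the effect was more positive in GMPs than in LT-HSCs for Acss2 (2.72, adjusted p = 0.0108) and Srebf1 (0.75, adjusted p = 0.0359). It was more negative for Lpcat2 (-3.97, adjusted p = 0.0454) and Cers6 (-2.18, adjusted p = 0.0254). The call of Acss2 held under all 20 alternatives, whereas that of Srebf1 was lost under 11, of Lpcat2 under 12 and of Cers6 under 5.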

How the results depend on the processing

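Fads1, Fads2, Fads3, Scd1 and Hacd4 had their highest mean in control LT-HSCs also with the size factors of DESeq2 or with none, and 4 to 5 of the 10 genes did when each library was left out. Of single levels, those of Scd2 and Elovl1 in AML1-ETO LT-HSCs moved by more than 1 SD with the size factors of DESeq2, to 319 and 71.5 CPM. For the log2 fold changes of all named genes, 1507 values under an alternative kept direction and call, 221 lost the call, 18 gained one and 18 changed sign, none of which had been called.

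In LT-HSCs DESeq2 called 1 of the 10 genes higher and 3249 of all genes in place of 1791, and the fit of all 14 samples called 1 higher and 3166 in all. Leaving out each library gave 0 to 2 members higher, 1 to 4 lower and 334 to 2376 genes in all. In GMPs DESeq2 called 1 member lower and 2950 genes in place of 1319. Without a filter 0 members were higher and 816 genes were called, and in the fit of all 14 samples 0 and 458. Leaving out each library gave 0 to 2 members higher, 0 to 1 lower and 131 to 3514 genes. For the difference DESeq2 called 2079 genes in place of 1021, and leaving out each library gave 1 to 4 members more positive and 471 to 1477 genes. From LT-HSC to GMP leaving out each library gave 1 to 2 members higher in control mice, and 1 to 2 higher, 1 to 2 lower and 2092 to 4577 genes in AML1-ETO mice. With the size factors of DESeq2, upper-quartile factors, DESeq2 itself or no filter, 1 member was higher in AML1-ETO mice. The cause of these changes was not tested.

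With the replicate block, the number in the labels taken as a block, the counts were 1 member lower and 525 genes in LT-HSCs, 112 genes in GMPs, 508 genes for the difference and 1 member higher from LT-HSC to GMP in AML1-ETO mice. The members' calls lost with it were Fads1 and Hacd4 in LT-HSCs (adjusted p = 0.133 and 0.13, edgeR), Fads3 between the cell types in control mice (0.0912) and Elovl5 in AML1-ETO mice (0.0828). Runx1t1 in LT-HSCs was lost too (0.132). Same-numbered libraries correlated at 0.09, 0.16 and 0.11 between the AML1-ETO cell types, each best with its own number. In the other pairings they correlated at -0.08 to 0.04. The main fits did not take the numbers as pairs, and any pairing of AML1-ETO LT-HSC and GMP libraries is not accounted for there. Scd2 in LT-HSCs turned to 0.13 and Fads3 in GMPs to -0.27 with the block.

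Signs of uncalled values also turned when 1 library was left out. In LT-HSCs Scd2 ranged from -0.24 to 0.074 (positive without control replicate 3 or 4). In GMPs Fads2 ranged from -0.058 to 0.19 (negative without AML1-ETO replicate 1 or 3 or control replicate 1), Elovl6 from -0.24 to 0.19 (positive without AML1-ETO replicate 1 or control replicate 3), Elovl1 from -0.063 to 0.39 (negative without AML1-ETO replicate 2 or 3) and Elovl5 from -0.23 to 0.11 (positive without AML1-ETO replicate 3). The difference for Elovl1 ranged from -0.29 to 0.17 (positive without control LT-HSC replicate 3 or AML1-ETO GMP replicate 1). From LT-HSC to GMP in AML1-ETO mice Hacd4 ranged from -0.86 to 0.44 (positive without AML1-ETO LT-HSC replicate 3 or GMP replicate 2), Fads3 from -0.45 to 1.26 (negative without GMP replicate 1) and Scd2 from -0.15 to 0.017 (positive without GMP replicate 3).

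Another scaling moved the median of all genes by over 0.1 on the log2 scale: from 0.03 to -0.10 in LT-HSCs with upper-quartile factors, from 0.02 to -0.12 and -0.08 in control mice with the size factors of DESeq2 and upper-quartile factors, and from 0 to -0.11 in AML1-ETO mice with upper-quartile factors. Of all calls in LT-HSCs 61.8% were higher, against 51.7% with upper-quartile factors and 47.0% by DESeq2. In GMPs 58.0% were, against 68.1% without a filter, 86.0% in the fit of all 14 samples and 95.5% with the replicate block. There the balance turned without AML1-ETO GMP replicate 2 (44.1%) or 3 (48.8%), and it was 87.1% to 91.1% without a control GMP library. In control mice 56.9% were higher, against 44.9% with the size factors of DESeq2 and 41.6% by DESeq2, and in AML1-ETO mice 57.9%, against 47.4% by DESeq2. With 3 and 4 libraries a group, genes at a few CPM such as Fads3 and Scd1 in GMPs rest on few counts (126 and 149 in all control GMPs), and changes there may be missed.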
